A study of Mus musculus with 21 samples.

Results

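In all, 10 genes of enteroendocrine cells were followed through 6 groups of sorted epithelial cells from mice. They are the granule proteins Chga and Chgb, the hormone genes Cck, Gip, Sct, Sst, Nts, Gcg and Pyy, and the transcription factor Neurod1. They were named as a set of endocrine hormones and granule genes and found by symbol, and all 10 are among the 43432 gene identifiers counted in each of 21 libraries. All mice were naive C57BL6.Il25(Flare25/Flare25) animals, which carry a fluorescent reporter in the Il25 gene, and poly(A) RNA was sequenced from live (DAPI-), CD45-, EPCAM+ cells. Tuft cells, a rare chemosensory epithelial type, were the Flare25+ cells of small intestine (n = 3), colon (n = 4), gall bladder (n = 3), thymus (n = 4) and trachea (n = 4). The reference was the Flare25- epithelium of the small intestine (n = 3), called non-tuft below. It is a mixture of other cells of that epithelium, whose proportions were not measured. Each library came from 1 male of 12 weeks, except that each trachea library pooled 4 mice of 12 to 16 weeks, with females in pools 3 and 4.

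Enteroendocrine cells are scattered hormone-secreting cells of the gut epithelium. They store peptides in dense-core granules, sense nutrients in the lumen and release hormones that act on digestion, appetite and insulin secretion. Most of the hormones are restricted to regions of the gut, with cholecystokinin, secretin and gastric inhibitory peptide made mainly in the proximal small intestine and proglucagon products and peptide YY more towards the ileum and colon. Tuft and enteroendocrine cells are separate secretory lineages of the intestine, and granule genes are also read by neuroendocrine cells elsewhere, such as those of the airway. Medullary epithelial cells of the thymus express many genes of other tissues at a low level.

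NEUROD1 and its relatives are basic helix-loop-helix proteins, which bind E-boxes. The 250 bases before the start site are shown for the hormone genes that led the small intestinal reference (Cck), small intestine and gall bladder tuft cells (Sct) and colon tuft cells (Gcg). They come from RefSeq promoters of GRCm38.p6 and are written 5′ to 3′ on the gene's strand, which is the minus strand for each of them, with E-boxes of the letters CANNTG in capitals. Cck is at chr9:121495695-121495944, Sct at chr7:141279134-141279383 and Gcg at chr2:62483654-62483903.
Cck: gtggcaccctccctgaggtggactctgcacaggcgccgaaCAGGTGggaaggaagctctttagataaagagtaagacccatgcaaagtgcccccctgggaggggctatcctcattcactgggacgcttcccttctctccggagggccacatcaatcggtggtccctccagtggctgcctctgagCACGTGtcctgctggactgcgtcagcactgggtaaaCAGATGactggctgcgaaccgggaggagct
Sct: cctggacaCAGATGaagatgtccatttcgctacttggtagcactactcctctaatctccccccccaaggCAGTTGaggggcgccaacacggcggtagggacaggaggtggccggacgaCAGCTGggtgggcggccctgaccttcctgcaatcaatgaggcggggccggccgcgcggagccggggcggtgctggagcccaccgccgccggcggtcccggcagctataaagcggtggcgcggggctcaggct
Gcg: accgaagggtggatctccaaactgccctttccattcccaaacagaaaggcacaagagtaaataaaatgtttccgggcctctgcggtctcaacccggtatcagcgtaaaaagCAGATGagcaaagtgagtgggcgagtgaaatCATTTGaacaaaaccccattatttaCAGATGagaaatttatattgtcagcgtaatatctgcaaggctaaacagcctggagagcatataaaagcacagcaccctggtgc
Each of these windows held 3 E-boxes, a motif that reads as the same class on both strands. They began at -210, -66 and -30 bases in Cck, at -242, -181 and -132 in Sct and at -139, -108 and -83 in Gcg, counted from the start site. The base composition of the windows differed, with 60.0% G or C in Cck, 68.0% in Sct and 44.8% in Gcg. All 10 genes matched the promoter table, Pyy with 2 windows, and every window held at least 1 E-box. Of 32851 promoter windows of the same length, 66.2% held one. A cyclic AMP response element of the letters TGACGTCA, searched on both strands, was found in the windows of Chgb and Sst and in 1.55% of all windows. A match describes letters only and was not tested as a binding site.

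Levels are given as CPM, each count relative to its library total after TMM adjustment over the 21 libraries, and differences as fitted log2 fold changes. Library totals ran from 25739248 to 73574745 counts, so 3 counts, used here as the floor for detection, stood for 0.0423 to 0.107 CPM. Sorted cells per library ran from 130 in trachea to 57000 in the reference. The sum of 10 tuft markers, Pou2f3 and Trpm5 among them, was 138 to 262 CPM in non-tuft libraries and 3343 to 20126 CPM in tuft libraries, and all 10 were at 1 CPM or more in each tuft group. This tuft marker sum was 3343 to 4420 CPM in colon, 4759 to 6199 in thymus and at least 10944 in the other tuft groups. Other epithelial transcripts were present in tuft libraries as well. Goblet markers (8 genes) summed to 103649 to 113693 CPM in the reference, 2135 to 2638 in small intestine tuft, 6634 to 9180 in colon, 180 to 649 in gall bladder, 1541 to 2653 in thymus and 316 to 1214 in trachea. The airway secretory list held Scgb1a1, Scgb3a1, Scgb3a2, Bpifa1, Bpifb1 and Reg3g. These 6 genes summed to 515 CPM in gall bladder library 1 and to 1.07 and 3.06 in libraries 3 and 4. Their sum was 325 to 512 CPM in thymus and 88.3 to 220 in small intestine tuft, against 57.5 to 84.3 in the reference. By mean, all 6 were at 1 CPM or more in small intestine tuft and 1 in the reference. Transcripts of this list were thus present outside the trachea, most unevenly in gall bladder, and their source was not tested. Only sums over the list are given, so they cannot be read as airway transcripts alone. The levels of all members in every library are in the plot of levels by group. In these bulk samples fewer cells of a type and less RNA per cell cannot be told apart.

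**Figure D1:**
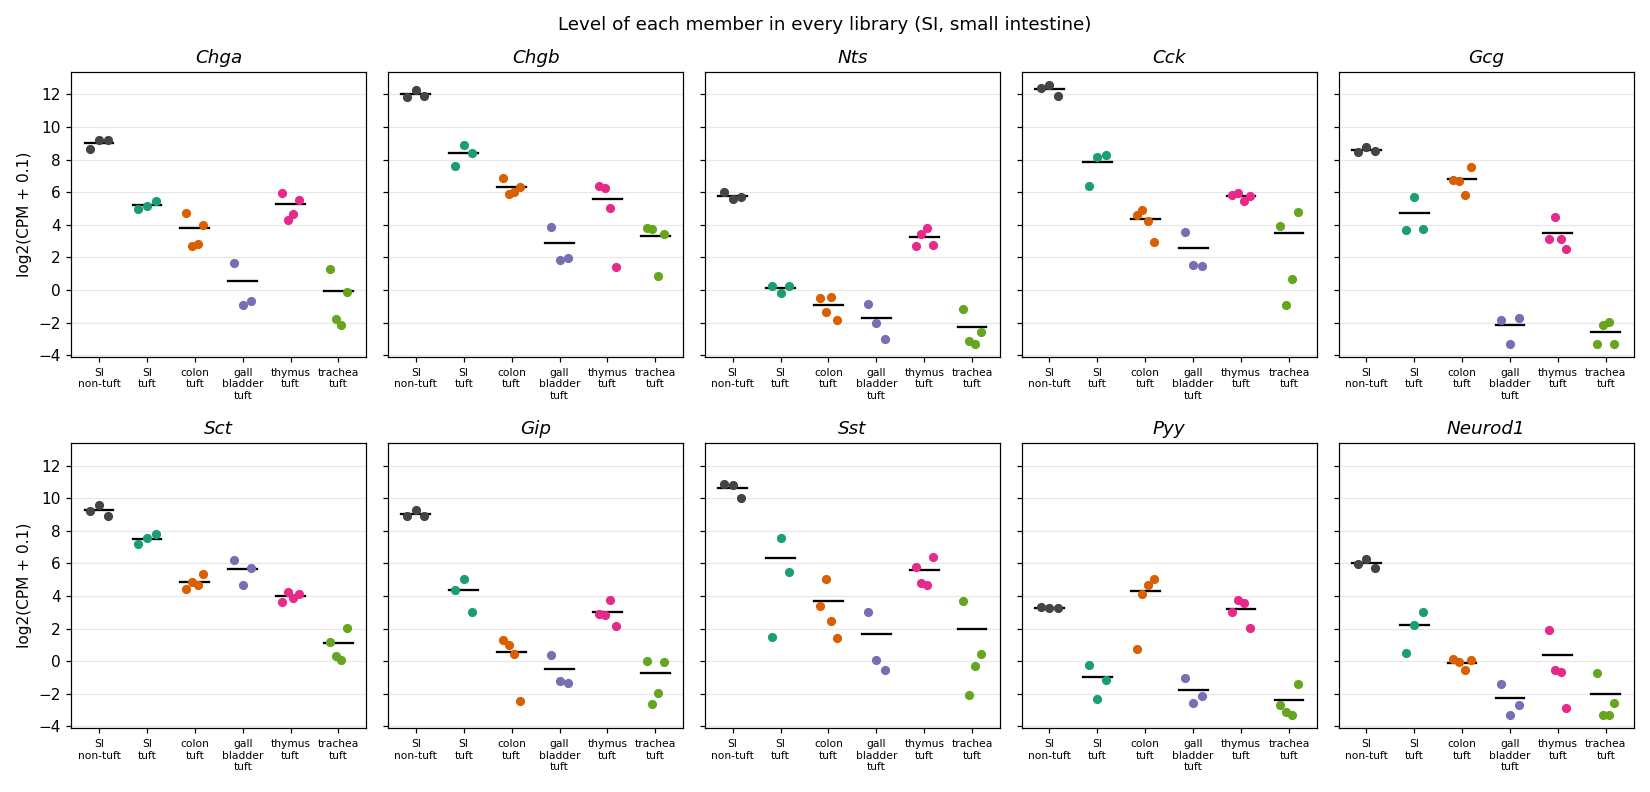
Each panel shows 1 gene, with log2(CPM + 0.1) on the vertical axis, 1 point per library and a line at the log2 of the group mean. Of the 10 genes, 9 were highest in the non-tuft reference by mean, and Pyy was highest in colon tuft cells, and values near -3.3 are libraries with no count.

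Small intestine tuft cells were compared with the non-tuft cells of the same tissue to ask how much of the endocrine programme a tuft cell sort of that epithelium still holds. All 10 genes were lower in tuft cells, by 3.16-fold for Sct to 52.1-fold for Nts. This is 10 of 10 tested, against 13.9% of 16063 genes called lower in the same fit and 13.0% called higher. A call needed an adjusted p under 0.05 together with at least a 2-fold change (edgeR quasi-likelihood test, Benjamini-Hochberg adjustment). The median log2 fold change was -4.02 over the 10 genes and -0.03 over all genes.

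Chga, chromogranin A, is a granule protein of most neuroendocrine cells (ENSMUSG00000021194, GRCm38 chromosome 12, 102554969 to 102565028). Its level was 392, 588 and 589 CPM in the non-tuft libraries and 30.5, 35.4 and 43.0 in the tuft libraries. The groups lay far apart, and the log2 fold change was -3.79 ± 0.21 (SE, adjusted p = 6.27e-07, edgeR quasi-likelihood test). Chgb, chromogranin B, its acidic granule partner, was at 3672, 4949 and 3809 CPM in the reference and at 196, 478 and 338 in tuft cells (ENSMUSG00000027350, chromosome 2, 132781278 to 132795079). Chgb fell by 3.55 ± 0.31 on the log2 scale (adjusted p = 1.42e-05, edgeR quasi-likelihood test), again with no overlap. Its tuft mean was 337 ± 141 CPM (SD, n = 3).

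Cck encodes cholecystokinin, which contracts the gall bladder and slows gastric emptying (ENSMUSG00000032532, chromosome 9, 121489824 to 121495694). It was at 5371, 6130 and 3785 CPM in the reference and at 83.4, 287 and 315 in tuft cells, a log2 fold change of -4.41 ± 0.47 (adjusted p = 5.04e-05, edgeR quasi-likelihood test). Tuft library 2 held the lowest Cck of its group. Gip encodes the incretin gastric inhibitory peptide (ENSMUSG00000014351, chromosome 11, 96024545 to 96030831). Gip was at 477, 613 and 474 CPM in the reference and at 20.2, 32.8 and 8.12 in tuft cells, with no overlap and a log2 fold change of -4.61 ± 0.44 (adjusted p = 2.20e-05, edgeR quasi-likelihood test). Nts encodes neurotensin, a peptide released after fat (ENSMUSG00000019890, chromosome 10, 102481756 to 102490486). Nts was at 62.9, 47.1 and 51.2 CPM in the reference and at 1.11, 0.775 and 1.08 in tuft cells, the largest fold difference of the set at a log2 fold change of -5.70 ± 0.23 (adjusted p = 7.18e-08, edgeR quasi-likelihood test).

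Sst encodes somatostatin, which inhibits the release of other hormones (ENSMUSG00000004366, chromosome 16, 23889573 to 23890958). Its reference levels were 1885, 1758 and 1051 CPM and its tuft levels 2.64, 191 and 44.7. Tuft library 2 held almost none and library 3 the most, the widest relative spread of any member in this group. Its log2 fold change of -4.22 ± 1.07 was called at an adjusted p of 0.00981 (edgeR quasi-likelihood test). Gcg encodes proglucagon, the precursor of glucagon and the glucagon-like peptides (ENSMUSG00000000394, chromosome 2, 62474530 to 62483650). Gcg was at 357, 429 and 371 CPM in the reference and at 12.9, 52.2 and 13.2 in tuft cells, a log2 fold change of -3.82 ± 0.51 (adjusted p = 0.000237, edgeR quasi-likelihood test).

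Pyy encodes peptide YY, which acts on appetite and transit (ENSMUSG00000017311, chromosome 11, 102106676 to 102107832). Pyy was low in this epithelium, at 9.74, 9.59 and 9.59 CPM in the reference and 0.767, 0.1 and 0.342 in tuft cells, the last from 34, 4 and 14 counts. Its log2 fold change was -4.50 ± 0.57 (adjusted p = 0.000162, edgeR quasi-likelihood test). Neurod1 encodes a basic helix-loop-helix factor of endocrine and neuronal differentiation (ENSMUSG00000034701, chromosome 2, 79452521 to 79456751). Neurod1 was at 63.0, 75.7 and 52.0 CPM in the reference and at 1.33, 4.63 and 7.99 in tuft cells, a log2 fold change of -3.71 ± 0.51 (adjusted p = 0.000259, edgeR quasi-likelihood test). In the annotation Neurod1 overlaps Cerkl on the same strand and Gm26755 on the opposite one, so its counts are uncertain, while no gene overlaps the other 9. In a fit of all 21 libraries, in which noisier groups share the estimate of spread, Sst and Neurod1 were no longer called (adjusted p = 0.0758 and 0.133, edgeR quasi-likelihood test).

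Sct encodes secretin, which drives bicarbonate secretion by the pancreas and bile ducts (ENSMUSG00000038580, chromosome 7, 141278330 to 141279133). Sct was at 592, 754 and 476 CPM in the reference and at 148, 186 and 219 in tuft cells. The groups did not overlap, and the log2 fold change of -1.66 ± 0.21 was the smallest of the 10 genes in size (adjusted p = 0.000140, edgeR quasi-likelihood test). The tuft mean of Sct was 30.3% of the non-tuft mean, with 24.3, 30.6 and 36.0% in the single libraries. For the other 9 genes this share ran from 1.83% for Nts to 8.14% for Chgb, and no single library exceeded 13.5% (Gcg, library 3). The median share was 5.92% over the 10 genes, 2.55% over 8 goblet markers and 2.56% over 5 Paneth cell markers. Enterocyte markers went the other way, summing to 14232 to 16017 CPM in the reference and 26000 to 31576 in tuft cells, with 2 of 9 called higher and none lower. The goblet marker Spdef, at 15.0%, was the highest of the 13 goblet and Paneth genes, and the part of RNA from other cell types in the tuft libraries was not tested.

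**Figure D2:**
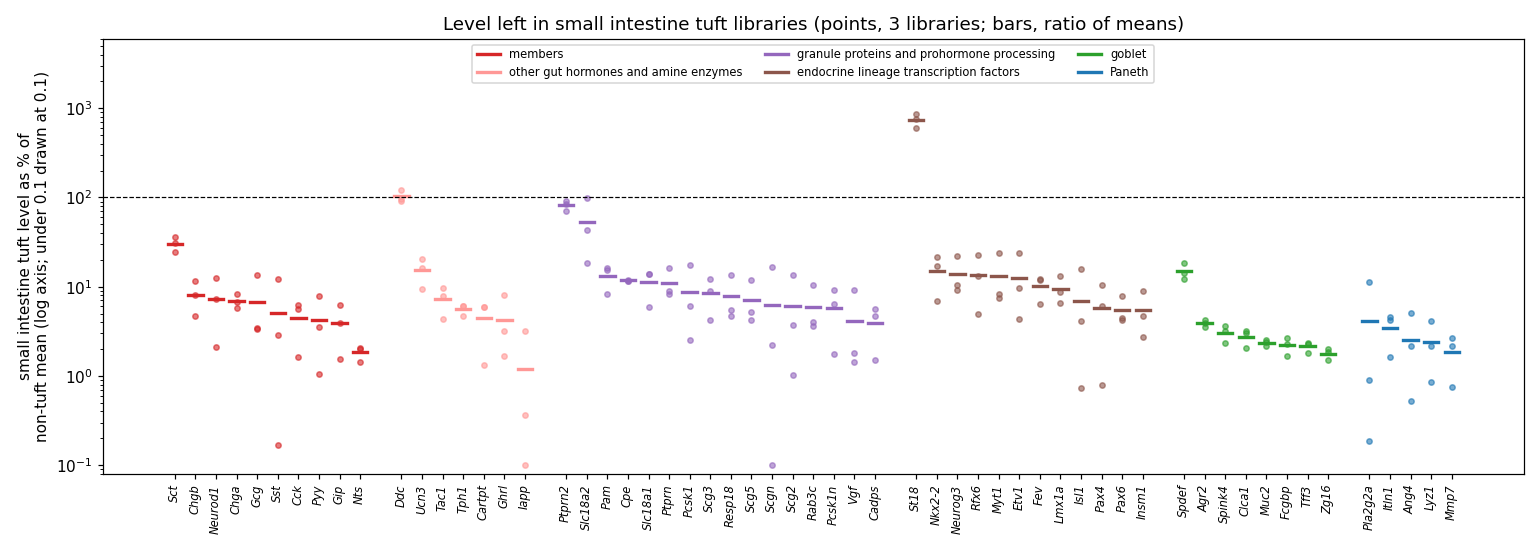
The vertical axis (log scale) gives the level in small intestine tuft cells as a percentage of the non-tuft mean, with 1 point per tuft library and a bar for the ratio of group means, for the 10 genes, genes of 3 related lists and the goblet and Paneth markers. Sct (30.3%) stands above the other members (1.83 to 8.14%), and Ddc, Ptprn2, Slc18a2 and St18 lie far above the rest of their lists.

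The wider endocrine programme was lower as well. Of 7 tested other gut hormones and amine enzymes, 6 were called lower and none higher, led by Iapp (amylin), Ghrl (ghrelin), Cartpt (the CART prepropeptide) and Tph1, the enzyme that starts serotonin synthesis. Tph1 was at 266 ± 24.7 CPM (SD, n = 3) in the reference and 14.9 ± 2.08 in tuft cells. Ddc, the decarboxylase of serotonin and dopamine synthesis, was the exception, at 71.3, 82.5 and 74.2 CPM in the reference and 69.1, 73.3 and 93.1 in tuft cells (adjusted p = 0.589, edgeR quasi-likelihood test). Of 17 genes of granule proteins and prohormone processing, 15 were called lower, with log2 fold changes of -4.60 for Cadps, -4.51 for Vgf, -4.05 for Pcsk1n and -4.00 for Rab3c. The 2 not called, the granule membrane protein Ptprn2 (46.4 against 56.5 CPM) and the vesicular monoamine transporter Slc18a2 (2.68 against 5.04 CPM), were chosen for naming after their values were seen, as was Ddc.

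Of 13 endocrine lineage transcription factors 12 were called lower, among them Insm1, Pax6 and Pax4, with log2 fold changes of -4.13, -4.11 and -4.03. St18 went the other way, at 14.8, 14.6 and 14.5 CPM in the reference and 128, 112 and 88.4 in tuft cells (log2 fold change 2.96 ± 0.16, adjusted p = 5.02e-07, edgeR quasi-likelihood test). Among 6 nutrient sensors of endocrine cells 5 were called lower. Ffar1, a long-chain fatty acid receptor, had a mean of 1.39 CPM in the reference and no count in any tuft library, which allows up to 0.0750 CPM by 3 counts. Gpr119, a lipid amide receptor, was at 1.89 and 0.00833 CPM, Ffar4 at 4.27 and 0.140 and Trpa1 at 19.9 and 1.40. Of 17 receptors of these hormones 8 passed the filter on low counts, 5 of them called lower, led by Npy1r, Sstr5, Sstr2 and Sstr1. The somatostatin receptor gene Sstr4 was called higher, at 0.0359, 0.0408 and 0 CPM in the reference and 1.11, 1.80 and 4.11 in tuft cells.

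Each tuft tissue was next set against the mean log2 level of the 4 others, with all 18 tuft libraries fitted together, so the comparisons share libraries and are given side by side. Means quoted for the other tissues are geometric means of their group means, with a small fixed value in place of group means at or near 0. Such a mean at or under the floor for detection is not a measured level. Of the 10 members, 8 were called higher in small intestine (against 10.0% of all genes), 2 in colon (10.7%), 1 in gall bladder (12.7%) and 6 in thymus (26.8%). Those called lower were 4 in gall bladder (8.79%) and 7 in trachea (13.7%). In a fit of all 21 libraries, 102 of 150 contrasts of a member between 2 groups were called, against 23.9% of all genes and pairs of groups. Groups were also ordered by mean level for each gene. The steps between neighbouring groups that were called were the reference over the next group for Chga, Chgb, Nts, Cck, Sct and Gip, and within the tuft tissues colon over gall bladder for Chga, thymus over trachea for Chgb and Sct, thymus over small intestine for Nts and Pyy, colon over small intestine and thymus over gall bladder for Gcg, small intestine over gall bladder for Sct and thymus over colon for Gip. Gall bladder and trachea were neighbours for 9 members and were called apart for none of them. The step of Gcg from colon to small intestine was at the threshold (adjusted p = 0.0472, edgeR quasi-likelihood test), and it was lost in 10 of 21 runs that left out 1 library (adjusted p from 0.0555 to 0.225, highest without small intestine tuft library 2). That of Nts from the reference to thymus (adjusted p = 0.0374, edgeR quasi-likelihood test) was lost in 9 of 21 such runs (up to 0.120), with DESeq2 size factors (0.0526) and with no filter on low counts (0.0583). The step of Sct below the reference was lost without non-tuft library 2 or small intestine tuft library 2 or 3 (adjusted p = 0.0886, 0.101 and 0.0718), and that of Chgb without small intestine tuft library 2 (0.0665). The step of Nts from thymus to small intestine was lost without any 1 of the 3 small intestine tuft libraries (up to 0.0758). That of Chgb from thymus to trachea was lost without thymus library 1 (0.0540), and thymus library 4 (2.59 CPM) lay inside the trachea range (1.73 to 13.6). The limma voom test with sample weights lost the steps of Chgb and Sct from thymus to trachea (adjusted p = 0.603 and 0.216). It also lost those of Chga from colon to gall bladder (0.324) and of Gcg from thymus to gall bladder (0.0856).

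**Figure D3:**
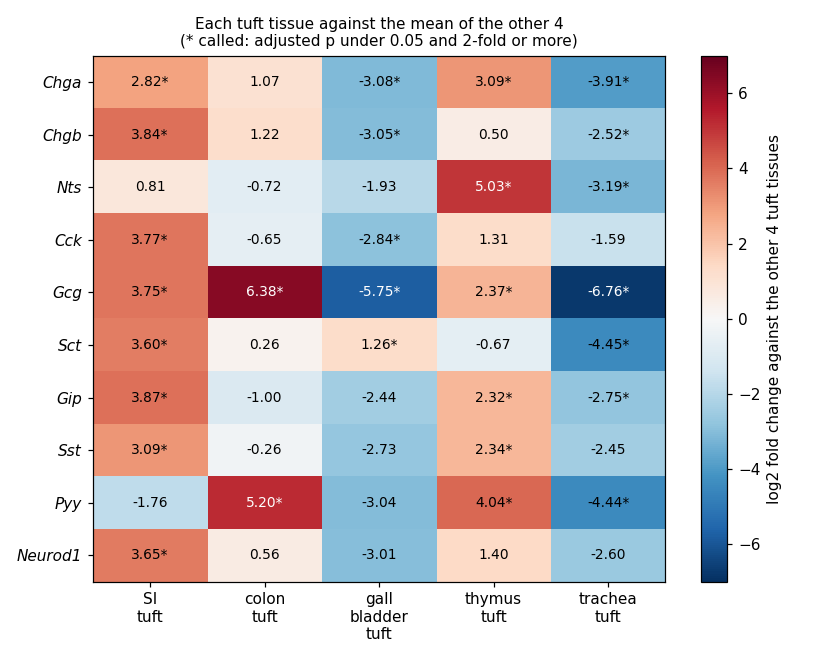
Each cell gives the log2 fold change of 1 gene in 1 tuft tissue against the mean of the other 4 tuft tissues (red higher, blue lower), with an asterisk where it was called. Small intestine and thymus tuft cells were called higher for 8 and 6 genes (against 10.0% and 26.8% of all genes) and trachea lower for 7 (13.7%). Gall bladder was called lower for 4 (8.79%) and higher only for Sct (12.7%).

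In small intestine tuft cells 8 members were called higher than in the other tuft tissues, against 10.0% of 19850 genes, and none lower, against 7.45%. Sct was at 184 ± 35.7 CPM (SD, n = 3) and at a geometric mean of 14.8 CPM elsewhere, a log2 fold change of 3.60 ± 0.32 (adjusted p = 9.94e-08, edgeR quasi-likelihood test). Chgb, Cck and Gip were higher by 3.84, 3.77 and 3.87 on the same scale, Gcg by 3.75 and Chga by 2.82. The calls of Sst (3.09 ± 0.88, adjusted p = 0.0176, edgeR quasi-likelihood test) and Neurod1 (3.65 ± 1.09, adjusted p = 0.0234, edgeR quasi-likelihood test) each rested on few libraries. Without small intestine tuft library 3 the log2 fold change of Sst was 1.29 (adjusted p = 0.587) and the adjusted p of Neurod1 was 0.0755, and without library 4 that of Neurod1 was 0.168. Pyy and Nts were not called. Markers of other intestinal cell types were higher in the same comparison, with 9 of 9 enterocyte, 3 of 5 Paneth and 2 of 8 goblet genes called higher and none lower, and a median log2 fold change of 6.40 over the enterocyte genes. Enterocyte genes summed to 26000 to 31576 CPM in small intestine tuft and to at most 1640 in other tuft libraries, and their part in the result was not tested. Of 13 lineage factors 7 were also called higher and 1 lower, with Pax4 at 0.359 CPM against 0.0102 elsewhere, which is under the floor for detection.

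Colon tuft cells stood out by 2 members, the hormones of the distal gut, against 10.7% of genes called higher and 5.78% called lower in that comparison. Gcg was at 105, 102, 57.5 and 190 CPM in colon and at a geometric mean of 1.27 CPM elsewhere, a log2 fold change of 6.38 ± 0.56 (adjusted p = 1.10e-07, edgeR quasi-likelihood test). Every colon library was above all other tuft libraries for Gcg, the nearest being small intestine library 3 at 52.2. Pyy was at 1.57, 17.1, 25.9 and 32.9 CPM, with a log2 fold change of 5.20 ± 0.75 (adjusted p = 4.80e-05, edgeR quasi-likelihood test). Colon library 1 was low for Pyy but not for Gcg, and it lay below all 4 thymus libraries. By mean level Pyy was higher in colon tuft cells (19.4 CPM) than in the non-tuft reference of the small intestine (9.64 CPM). The series holds no non-tuft colon library, so tissue and cell type cannot be told apart in this comparison. Colon libraries 2 to 4 lay above every reference library (9.59 to 9.74 CPM) and colon library 1 below. The step was not called in the fit of 21 libraries (adjusted p = 0.764, edgeR quasi-likelihood test). For the remaining 8 members colon did not pass the test, the highest log2 fold change being 1.22 for Chgb.

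Insl5, a hormone of colonic endocrine cells, was at 3.77, 2.38, 10.3 and 18.7 CPM and was called higher (log2 fold change 5.26 ± 1.18, adjusted p = 0.00321, edgeR quasi-likelihood test). Ffar4, the fatty acid receptor, was at 5.46, 5.34, 13.0 and 9.65 CPM, against 0.221 elsewhere, and Npy1r, a receptor of the peptide YY family, at 9.81, 16.3, 30.1 and 9.27 CPM against 0.0747. Both were called higher, by 5.13 and 7.61 on the log2 scale. Of the 10 other gut hormones and amine enzymes 4 were called higher and none lower. Goblet markers were at their highest tuft level in colon (6634 to 9180 CPM), and their part in these differences was not tested. The 10 tuft markers had their lowest sum in colon, at 3343 to 4420 CPM. Of them, 8 were called lower there than in the other tuft tissues and none higher, and the part of this in the colon results was not tested. Insl5 was chosen for naming after its values were seen.

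In gall bladder tuft cells Sct was called higher and 4 other members lower. Sct was at 73.6, 25.5 and 52.0 CPM and at a geometric mean of 20.4 CPM elsewhere, which was called (log2 fold change 1.26 ± 0.36, adjusted p = 0.0150, edgeR quasi-likelihood test), against 12.7% of genes. The genes called lower were Gcg, Chga, Chgb and Cck, against 8.79% of genes. Gcg had 7, 0 and 8 counts in the 3 libraries (0.177, 0 and 0.209 CPM) and a log2 fold change of -5.75 ± 1.02. Cck was at 11.9, 2.76 and 2.67 CPM and Chgb at 14.6, 3.44 and 3.84, so library 1 held the highest level of both. That library also held the most Zg16, a goblet gene, at 40.2 CPM against 4.62 and 8.62, and the part of intestinal RNA in it was not tested. Without library 1 the log2 fold change of Sct was 0.92 and no longer called (adjusted p = 0.125), and without library 3 or 4 only Gcg was called lower.

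The ratio of Sct to Cck does not depend on scaling between libraries. It was 6.19, 9.23 and 19.5 in gall bladder, 1.77, 0.646 and 0.694 in small intestine tuft cells and 0.110, 0.123 and 0.126 in the non-tuft reference. No library of either small intestinal group reached the gall bladder range. Colon libraries had ratios of 0.896, 0.986, 1.36 and 5.19, thymus libraries 0.222 to 0.336 and trachea libraries 0.140 to 2.70. Sct over Zg16 was 1.83, 5.51 and 6.04 in gall bladder, 0.361 to 0.461 in small intestine tuft cells and at most 0.0304 in the reference, and it was 0.0486 to 0.102 in thymus libraries 1 to 3 and 13.3 in thymus library 4. By level, gall bladder Sct (mean 50.4 ± 24.1 CPM, SD, n = 3) lay below small intestine tuft cells (adjusted p = 0.00457) and was not called apart from colon (adjusted p = 0.154), in the fit of 21 libraries by the edgeR quasi-likelihood test.

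**Figure D4:**
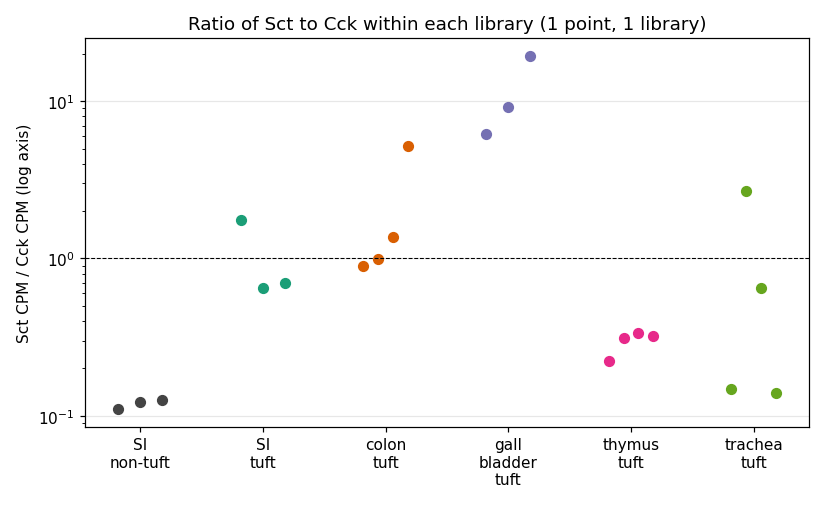
The vertical axis (log scale) is the ratio of Sct CPM to Cck CPM, with 1 point per library and a dashed line at a ratio of 1. The gall bladder libraries (6.19, 9.23 and 19.5) are above every other library, and the non-tuft libraries (0.110 to 0.126) are the lowest.

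Thymus tuft cells held a mixture of hormones in which 6 members were called higher than in the other tuft tissues, against 26.8% of genes, and none lower, against 5.64%. The median gene was higher by 0.33 on the log2 scale in this comparison, and DESeq2 size factors raised that median by 0.106. Nts was at 6.36, 10.7, 13.8 and 6.65 CPM and at a geometric mean of 0.310 elsewhere, with no other tuft library above 1.11 (log2 fold change 5.03 ± 0.79, adjusted p = 4.99e-05, edgeR quasi-likelihood test). Pyy was at 7.93, 13.3, 11.9 and 4.00 CPM (4.04 ± 0.74) and Chga at 61.9, 19.4, 25.2 and 46.1 CPM (3.09 ± 0.58). Gcg, Sst and Gip were called with log2 fold changes of 2.37, 2.34 and 2.32. Gip lost its call without thymus library 3 (adjusted p = 0.0962), and Sst lost it in 10 of 18 runs that left out 1 library (adjusted p up to 0.153), so its call sat at the threshold. The limma voom test with sample weights lost the thymus calls of Gcg and Sst (adjusted p = 0.0689 and 0.148).

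Thymus libraries differed in a gene-specific way. Chgb was at 82.3, 75.7, 32.6 and 2.59 CPM, lowest in library 4, whereas Sst was highest there, at 54.2, 27.7, 25.6 and 84.5 CPM. Neurod1 was at 3.62, 0.589, 0.535 and 0.0373 CPM, and Zg16 at 254, 185, 163 and 1.29. Library 4 was therefore low in Chgb, Neurod1 and Zg16 while its Cck (53.5 CPM) and Sct (17.1 CPM) were inside the range of the others, 43.9 to 60.5 and 12.3 to 18.8. Cck and Sct were the steadiest members in thymus.

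The related lists were high in thymus too. Of the 10 other gut hormones and amine enzymes 8 were called higher, including Ghrl, Iapp and Cartpt. Iapp was at 8.65, 3.90, 32.7 and 0.521 CPM. Of 17 granule and processing genes 11 were called higher, Cadps among them at 57.1, 48.5, 56.4 and 137 CPM against 0.334 elsewhere. Of 13 lineage factors 7 were called higher, led by Insm1 at 14.4, 40.5, 20.2 and 22.6 CPM against 0.0627 (log2 fold change 8.43 ± 0.71, adjusted p = 3.01e-08, edgeR quasi-likelihood test). Insm1 was also 24.4 CPM by mean in thymus against 7.24 in the non-tuft reference, which is of another tissue. Markers of medullary thymic epithelium, 6 of 7 at 1 CPM or more, summed to 1212 to 1531 CPM in thymus and to at most 201 elsewhere, with Aire at 155 to 252 CPM in thymus. Markers of airway neuroendocrine cells, 4 of 4 at 1 CPM or more, summed to 90.9 to 180 CPM, with Calca at 8.12 to 34.0. The part of either in the thymus results was not tested.

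In trachea tuft cells 7 members were called lower than in the other tuft tissues, against 13.7% of genes, and none higher, against 17.3%. Sct was at 2.19, 1.15, 0.958 and 3.92 CPM, below every other tuft library, with a log2 fold change of -4.45 ± 0.47 (adjusted p = 7.23e-07, edgeR quasi-likelihood test). Gcg had 0, 8, 5 and 0 counts (log2 fold change -6.76 ± 0.95) and Pyy 2, 1, 0 and 8. Chga was at 2.33, 0.188, 0.124 and 0.812 CPM (-3.91 ± 0.85) and Chgb at 13.6, 13.2, 1.73 and 10.9 (-2.52 ± 0.69). Nts and Gip were called with log2 fold changes of -3.19 and -2.75. Nts lost its call without trachea library 2, 3 or 4 and Gip without trachea library 2 or 3 or small intestine tuft library 2 or 3, with adjusted p from 0.0521 to 0.0728.

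Cck was uneven in trachea, at 14.8, 0.424, 1.48 and 27.9 CPM, and it was not called (log2 fold change -1.59 ± 0.74, adjusted p = 0.106, edgeR quasi-likelihood test). Its receptor gene Cckar, chosen for naming after its values were seen, was at 113, 46.7, 33.4 and 10.0 CPM in trachea and had no count in the non-tuft reference (log2 fold change 8.59 ± 1.30 against the other tuft tissues). Insm1 was at 0, 0.0314, 0 and 0 CPM in trachea, and of 13 lineage factors 7 were called lower and 3 higher. Airway neuroendocrine markers summed to 15.8 to 95.2 CPM in trachea, with 1 of 4 at 1 CPM or more, and 1 was called higher and 2 lower. Trachea libraries came from 130 to 453 sorted cells, the smallest inputs of the study, and age, sex and dissociation differed from the other tissues, so tissue and preparation cannot be told apart.

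The make-up of the hormone transcripts differed between groups. Counts per kilobase of exon were summed over Cck, Sst, Sct, Gip, Gcg, Pyy, Nts and Chga, which compares genes per length. In the non-tuft reference Cck made up 47.0 ± 1.10% (SD, n = 3), Sst 26.0% and Sct 11.4%. In small intestine tuft cells Sct led with 49.6 ± 16.4% (33.1 to 65.8%), followed by Cck with 26.4%. In colon tuft cells Gcg took 38.4 ± 11.2% (n = 4), Sct 23.6% (up to 27.4%) and Pyy 15.6% (1.63 to 28.0%). Gcg led in colon libraries 1, 2 and 4, while in library 3 Pyy (28.0%), Sct (27.4%) and Gcg (26.2%) were close together. In gall bladder Sct took 82.6, 90.3 and 95.5%. In thymus tuft cells Sst took 34.0 ± 14.6% and Cck 22.1%, with Sst leading in libraries 1, 3 and 4 and Cck in library 2 (26.4%, against 21.9% for Sst). Lengths of the longest transcript in place of all exons turned that order, with Cck at 29.7% and Sst at 28.3%. By mean, Nts was above 1% in thymus (4.24%) and in no other group. In trachea the leading gene changed from library to library, with Cck from 12.6 to 68.4% and Sct from 9.64 to 68.9%, at levels near the floor for several genes.

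**Figure D5:**
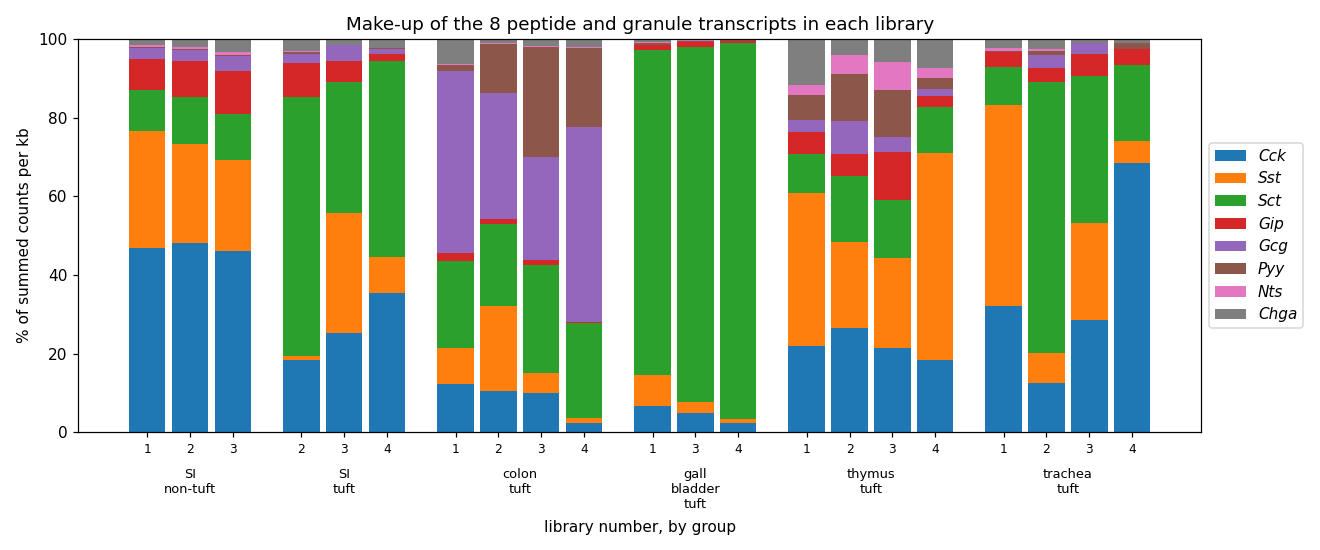
Each bar is 1 library and shows the share of counts per kilobase of exon taken by each of 8 genes, in percent, with libraries grouped by tissue. The 3 non-tuft bars are alike, Sct fills most of each gall bladder bar, Gcg, Sct and Pyy are large in colon, and trachea bars vary most.

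Across the 18 tuft libraries the members did not vary as 1 unit. Pearson's r of log2(CPM + 1), given as a description over libraries that share tissue and depth, was highest between Cck and Gip (0.874), Chgb and Neurod1 (0.843) and Chga and Cck (0.834). It was lowest between Nts and Sct (0.0704) and between Neurod1 and Pyy (0.0710). Pyy followed Gcg (0.704) more than Cck (0.187). Over all 21 libraries the genes most like the mean of the members were Tph1 (r = 0.974), Ido1 (0.963), AY761184 (0.954), Scg2 (0.949), Zg16 (0.941), Defa30 (0.939), Gm14851 (0.936) and Disp2 (0.933). Scg2 encodes a granin of the same granules, Zg16 a goblet cell lectin and Defa30 a Paneth cell defensin whose near-identical copies may share reads. Zg16, for example, was at 25870 CPM in the reference by mean and 460 in small intestine tuft cells. Over the 18 tuft libraries alone a different set led, Ceacam18 (0.954), Slco2b1 (0.946), Gimap8 (0.938), 2210407C18Rik (0.935), Gcnt4 (0.934), Ksr1 (0.934), Cst6 (0.928) and Smpdl3b (0.927).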

How the data were processed

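The series holds 21 libraries of poly(A) RNA, amplified as cDNA without molecular identifiers per the labels' protocols, so floors cover counting error only. The authors deposited whole-number counts per Ensembl gene and library, not normalized. Per the submitters' processing notes, STAR and DESeq2 were used with GRCm38. Not given in the sources used here: the counting step, tool versions, strand and annotation. Symbols and coordinates came from GENCODE M21, which matched 42548 of 43432 identifiers; the other 884 held 0.0986% of counts.

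Low counts were removed by filterByExpr and TMM factors set the scale. Tests were run in edgeR 4.0.16 (quasi-likelihood, two-sided, Benjamini-Hochberg adjustment over all genes tested) in R 4.3.3, in fits of 6, 18 and 21 libraries. The code was also run on simulated counts with the same dispersion for all genes, so that run does not measure error rates in these data. Limma 3.58.1 and DESeq2 1.42.0 served as alternatives. Standard errors are approximate, from the F statistic. All 10 members passed the filter in each fit. All members were named. From each related list, the 4 largest changes among genes called in small intestine tuft against non-tuft cells with at least 1 CPM could be named, with any gene called against its list; a few genes of these lists enter the counts but are not reported here by name. The members and lists were chosen with earlier results of these data known.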

Additional observations from a re-analysis of the deposited data

Results flagged for a closer look

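In 30 sets of 4 libraries (10 genes in colon, thymus and trachea), 3 had 1 library far from the others by Dixon's criterion. Chance flags about 1 in 20 such sets if the values are normally distributed. That was not tested for these CPM, so the 3 flags cannot be weighed against this rate. Sst in trachea library 1 was 12.9 CPM, with the other trachea libraries at 0.141, 0.711 and 1.27, a gap of 0.912 of the whole range. Neurod1 in thymus library 1 was 3.62 CPM, against 0.589 or less in the others (gap 0.846 of the range). Neurod1 in trachea library 1 was 0.505 CPM, against 0.0706 or less (gap 0.860). It rested on 18 counts, with 0, 0 and 2 in the other trachea libraries, which are under the floor for detection.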

How the results depend on the processing

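The 10 genes called lower in small intestine tuft against non-tuft cells were 10 in all 6 runs without 1 library and under DESeq2, voom and the other filters and scalings, and 8 in the fit of 21 libraries, where calls over all genes were 785 higher and 539 lower, against 2092 and 2235. Without 1 library at a time, the count called higher ran from 6 to 8 in small intestine, stayed at 2 in colon, and ran from 0 to 1 in gall bladder (0 without library 1) and from 4 to 7 in thymus. The count called lower ran from 1 to 5 in gall bladder (1 without library 3 or 4) and from 5 to 9 in trachea. Calls over the 15 pairs of groups ran from 96 to 109, and the median share left in small intestine tuft from 4.83 to 7.52%. With limma voom and sample weights no member was called in gall bladder (0 higher, 0 lower, against 8.22% and 3.06% of all genes) and 2 were called lower in trachea (against 7.79%). That test called 7 members higher in small intestine (against 18.7%), 2 in colon (14.5%) and 4 in thymus (27.4%). DESeq2 called 9 lower in gall bladder, against 3328 of 18479 genes. The cause was not tested. The longest transcript in place of all exons moved the share of Cck in the reference to 57.7% and put Cck (29.7%) before Sst (28.3%) in thymus. Of 1288 alternative values for 53 called results, 1208 kept their call, 80 lost it and 0 reversed. In the fit of 21 libraries these include runs without a library of a group outside the pair. Not every kept call therefore tests the libraries compared. Without gall bladder library 1 and trachea libraries 1 and 4, a choice made after seeing the data, the counts were 9 higher in small intestine (against 12.4% of all genes), 3 in colon (12.8%), 8 in thymus (30.4%) and 1 in gall bladder (12.2%), with 5 lower in gall bladder (8.81%) and 10 in trachea (11.7%).

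With the replicate number as a block 10 members were called lower in the reference comparison, against 12.0% of all genes. The counts called higher were 8 in small intestine (against 9.21%), 2 in colon (9.66%), 1 in gall bladder (8.28%) and 6 in thymus (24.6%). Those called lower were 4 in gall bladder (6.84%) and 7 in trachea (12.6%), and the count over pairs was 109. The block ended the calls of Gip in trachea (log2 fold change -2.58, adjusted p = 0.0745), of Nts between the reference and thymus (0.0672) and of Gcg between colon and small intestine tuft (0.0750), and of no other named result. Deviations of same-numbered libraries correlated by 0.0073 on average (-0.064 to 0.149), and those of differently numbered libraries by -0.0024 (-0.085 to 0.071). These averages cannot tell whether same-numbered libraries share a mouse or a day, which was not tested.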
